A study of Homo sapiens with 12 samples.

Results

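Messenger RNA of 9 genes of the NRF2 antioxidant system was followed in 2 lung cancer cell lines at the start of treatment and after 36 h with a drug against the growth factor receptor EGFR. The genes were NFE2L2, KEAP1, GCLC, GCLM, TXNRD1, SRXN1, NQO1, HMOX1 and GPX4. They were taken by symbol from a table of read counts for 60591 genes. All 9 were found once, and all 9 were among the 19108 genes that passed the filter on low counts.

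PC9 and H1650 are established human non-small cell lung cancer lines, and both carry the same activating EGFR deletion. Their genotype is labelled Wild-type in all libraries, so no engineered change separates the groups. T0 cells were sampled at 0 h with 0.1% DMSO. Treated cells received 10 µM erlotinib or 0.1 µM osimertinib for 36 h. Each of the 6 groups has 2 libraries of polyA RNA, 12 in all. The study chose the lines because they respond differently to EGFR inhibition, and the RNA was sequenced to ask whether the drugs change expression differently in them.

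NRF2, the protein made from NFE2L2, is a transcription factor that cells keep at a low level until oxidants or electrophiles appear. KEAP1 holds it and presents it for degradation, and reactive molecules that modify KEAP1 let NRF2 accumulate. NRF2 then pairs with small MAF proteins on a DNA sequence called the antioxidant response element and raises genes for glutathione synthesis, thioredoxin recycling, quinone reduction and heme breakdown. In lung cancer the system is known for mutations in KEAP1 and NFE2L2 that leave it switched on. Because NRF2 is controlled mainly through the stability of the protein, counts of NFE2L2 RNA do not measure its activity.

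The core of the antioxidant response element, TGACNNNGC on either strand, was looked for in the RefSeq promoter windows (250 bases before to 50 after each gene's start, GRCh38.p14). A window was matched for 8 of the 9 genes. The gene without one is HMOX1. The core was present in 2 of the 8, and in 13.3% of 35116 promoters of the same length. The matches are shown because GCLM and TXNRD1 are the genes of the set whose windows carry the core. Their RNA moved differently between the lines. So did that of NFE2L2, GPX4 and, with osimertinib, NQO1, whose windows held no match, and that of HMOX1. A link between the core and these changes was not tested. GCLM held 1 match on the strand opposite to the gene, at bases -34 to -26 from its start, and TXNRD1 held 1 match on its own strand at -99 to -91 and 1 on the opposite strand at -8 to 1. Capitals mark the core and each run is written along the gene's strand.
GCLM, chr1:93909446-93909474, minus strand: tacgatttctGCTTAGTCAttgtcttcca
TXNRD1, chr12:104215670-104215698, plus strand: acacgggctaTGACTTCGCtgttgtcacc
TXNRD1, chr12:104215761-104215789, plus strand: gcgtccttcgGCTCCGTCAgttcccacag
A match describes these letters and is not a measured binding site. Sequence outside the windows was not searched, so a gene without a match here can hold the core elsewhere. Of the 86 other genes of the pathway described further on, 65 had a window and 16 of these (24.6%) held the core.

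Library totals ran from 17961765 to 26346187 reads with a median of 21581420.5. Mitochondrial genes took 4.36% to 5.36% of the reads in the T0 libraries and 5.77% to 7.20% in the treated libraries, without overlap. A count of 3 reads, used as the limit of detection, was worth 0.116 to 0.168 normalized CPM (counts scaled to a common library size), far below every gene of the set. Libraries of the same group differed by more than sampling noise, so none was counted as a repeat. The 7 epithelial markers were detected in every library. In PC9 they summed to 8609 to 8690 CPM at T0, 6817 to 6905 CPM with erlotinib and 9697 to 10475 CPM with osimertinib, and in H1650 to 6555 to 6844, 5617 to 5664 and 8407 to 9139 CPM. Both measures thus moved with treatment, and their part in the changes described here was not tested. The 8 blood and endothelial markers summed to 2.12 to 6.06 CPM, and the 8 fibroblast and muscle markers to 17.3 to 46.4 CPM with 4 of them at 3 reads or fewer everywhere.

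Levels are given as normalized CPM, which corrects for library size, and as RPKM where genes are set beside each other. RPKM also divides by the gene length given with the counts, which need not be the length of the transcript expressed. Changes are log2 fold changes fitted by edgeR (quasi-likelihood test), p-values were adjusted by Benjamini-Hochberg over all 19108 genes, and a gene is called higher or lower where the adjusted p is under 0.05. Errors beside fold changes are standard errors, or 95% confidence intervals where a range is given. The T0 cells were collected 36 h before the treated cells and no vehicle library at 36 h was analysed here, so an effect of a drug and an effect of time in culture cannot be told apart. These are bulk libraries, in which fewer cells with a transcript and less of it per cell cannot be told apart either.

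At T0 the order of the genes differed between the lines. Per kilobase, TXNRD1 was the highest gene of the set in PC9 at 239 ± 13.5 RPKM (SD, n = 2), and NQO1 was the highest in H1650 at 173 ± 5.60 RPKM. HMOX1 was the lowest in PC9 at 6.51 ± 0.424 RPKM and in H1650 stood below NQO1, TXNRD1 and GPX4 at 38.4 ± 1.30 RPKM. SRXN1 was the lowest in H1650 at 3.37 ± 0.817 RPKM. Of all 19108 genes tested in PC9 at T0, TXNRD1 ranked 116 and HMOX1 6166 by RPKM.

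H1650 had less RNA for 5 of the 9 genes at T0 and more for 2, where 33.8% of all genes tested were lower, 35.8% higher and 69.6% called in either direction. The share of the 9 genes called was near that of all genes. KEAP1 was lower by 0.74 on the log2 scale, GCLC by 1.96, GCLM by 1.95, TXNRD1 by 1.36 and SRXN1 by 2.43. NQO1 was 1.28-fold higher and HMOX1 5.90-fold higher in H1650. NFE2L2 and GPX4 missed the test, with intervals of -0.27 to 0.04 and -0.26 to 0.09 for the log2 difference. Each line is a single established culture, so these are differences between PC9 and H1650 only. The p-values rest on the spread between the 2 libraries of a group. That spread was estimated over all 6 groups and drawn toward that of other genes (median prior degrees of freedom 20.7). The study calls the 2 libraries of a group biological replicates, and the labels do not say whether they came from separate cultures.

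**Figure D1:**
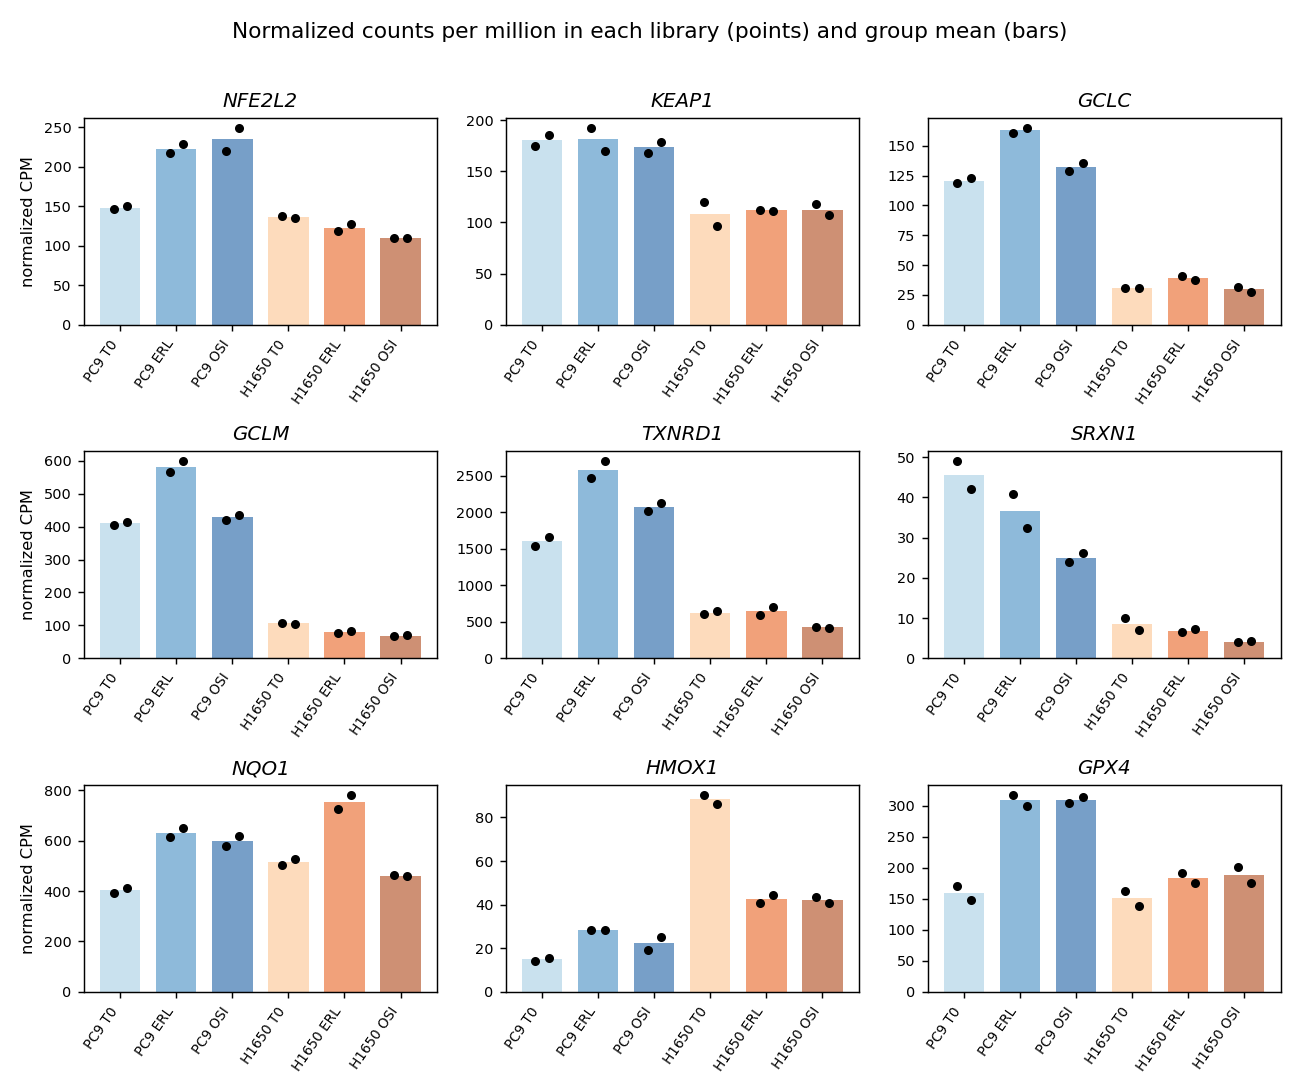
Normalized CPM (vertical axis, from 0, scaled separately for each gene) of the 9 genes in each library (points) with the group mean (bar) for PC9 (blue) and H1650 (orange) at T0 and after erlotinib (ERL) or osimertinib (OSI). NFE2L2 rose from about 148 to 223 and 234 CPM in PC9 while the H1650 libraries lay between 109.6 and 137 CPM, and HMOX1 lay at 14.3 to 28.3 CPM in PC9, lowest at T0, and at 40.7 to 90.4 CPM in H1650, highest at T0.

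With erlotinib in PC9, 7 of the 9 genes were higher and 1 was lower, where 32.7% of all genes tested were higher, 29.1% lower and 61.8% called in either direction. Their median log2 change was 0.59 against 0.07 over all genes. With osimertinib in PC9, 5 were higher and 1 lower, beside 32.7%, 28.7% and 61.4% of all genes, with a median of 0.37 against 0.06. In H1650 erlotinib left 3 higher and 2 lower, beside 18.0%, 18.5% and 36.5%, with a median of 0.05 against 0.01. Osimertinib in H1650 left 1 higher and 5 lower, beside 17.8%, 17.9% and 35.7%, with a median of -0.31 against 0. GPX4 was the one gene of the set higher in all 4 comparisons, and NFE2L2, GCLM, TXNRD1 and HMOX1 were each called higher in some and lower in others.

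**Figure D2:**
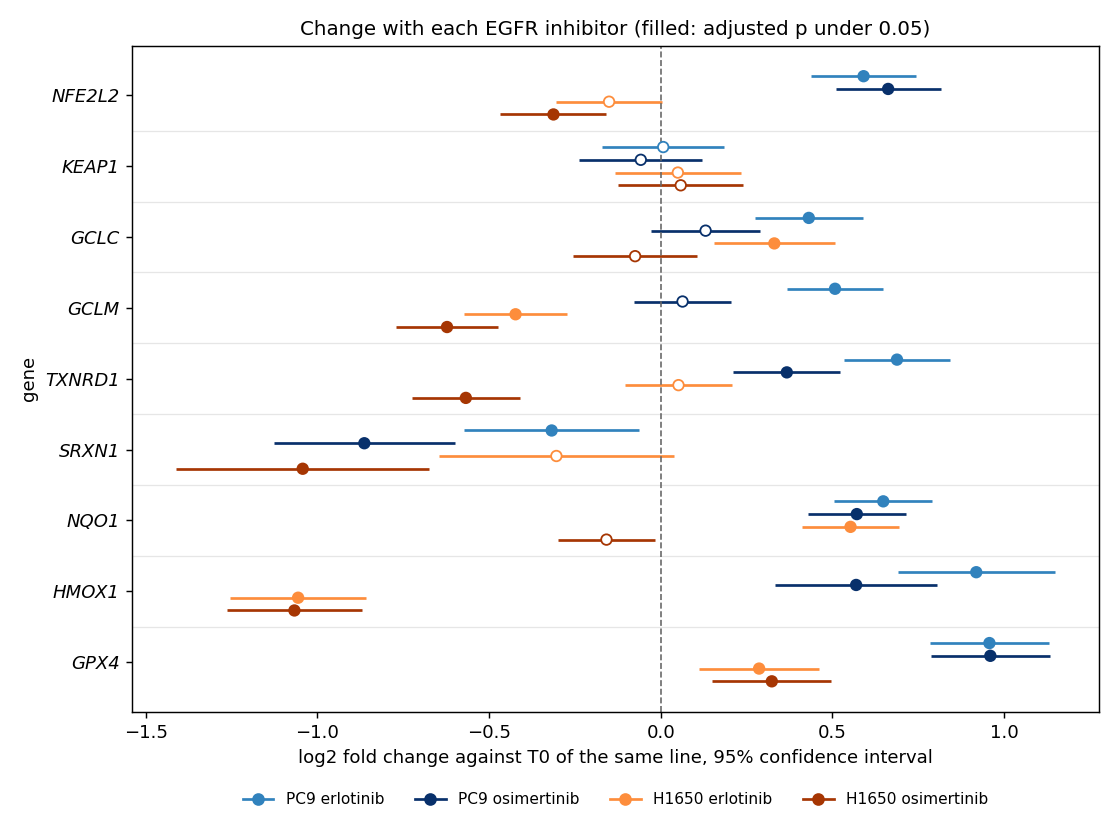
Log2 fold change against T0 of the same line (horizontal axis) with its 95% confidence interval for each gene, with 1 color for each line and drug and filled points where the adjusted p is under 0.05. The PC9 and H1650 points of HMOX1 lie on opposite sides of 0, at 0.92 and 0.57 in PC9 and at -1.06 and -1.07 in H1650, and all 4 points of KEAP1 are open and close to 0.

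The change itself was compared between the lines by subtracting the change in PC9 from that in H1650. With erlotinib 5 of the 9 genes were lower in this difference and none higher, where 19.8% of all genes tested were lower, 21.1% higher and 40.8% called in either direction. With osimertinib 6 were lower and none higher, beside 20.5%, 21.5% and 41.9%. By the same edgeR test without adjustment none of the 9 had a higher difference at p under 0.05 with either drug, and DESeq2 called the same numbers. NFE2L2, GCLM, TXNRD1, HMOX1 and GPX4 were lower with both drugs and NQO1 with osimertinib. Both differences use the same T0 libraries, so they are not independent of each other.

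**Figure D3:**
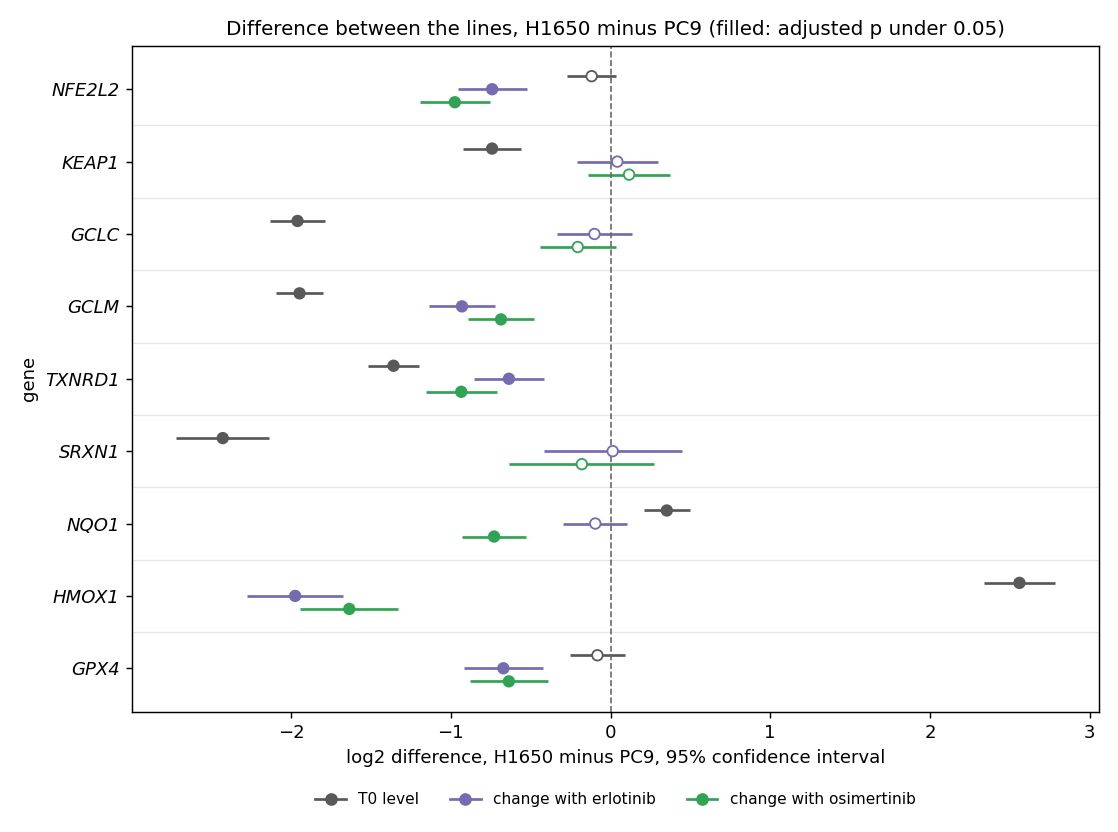
Log2 difference between the lines (H1650 minus PC9, horizontal axis) with its 95% confidence interval for the T0 level (gray), the change with erlotinib (purple) and the change with osimertinib (green), with filled points where the adjusted p is under 0.05. HMOX1 stands at 2.56 for the T0 level and at -1.97 and -1.64 for the changes, whereas the changes of KEAP1, GCLC and SRXN1 have intervals that cross 0.

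The 2 regulators behaved differently. NFE2L2 lies on chromosome 2 from 177227595 to 177392697 on the minus strand and is protein-coding (GENCODE 29, GRCh38). Its level in PC9 was 146 and 150.1 CPM at T0, 218 and 228 CPM with erlotinib and 219 and 249.5 CPM with osimertinib. In H1650 it was 137 and 136 CPM at T0, 118 and 128 CPM with erlotinib and 109.6 and 110.2 CPM with osimertinib. The PC9 drug libraries were all above the PC9 T0 libraries, and the H1650 drug libraries were all below the H1650 T0 libraries. NFE2L2 rose 1.51-fold with erlotinib (log2 0.59 ± 0.07, edgeR adjusted p = 7.6e-08) and 1.58-fold with osimertinib (0.66 ± 0.07) in PC9. It fell by 0.31 on the log2 scale with osimertinib in H1650 (edgeR adjusted p = 0.0016), and its change with erlotinib there, -0.15 ± 0.08, missed the test. The change in H1650 was lower than that in PC9 by 0.74 ± 0.11 with erlotinib and by 0.97 ± 0.11 with osimertinib. In GENCODE 29 the same-strand gene AC019080.1 overlaps 17.6% of the exon bases of NFE2L2, and it had 34 to 127 reads in PC9 against 2899 to 5845 for NFE2L2.

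KEAP1, the adaptor that presents NRF2 for degradation, lies on chromosome 19 from 10486120 to 10503741 on the minus strand. PC9 held 175 and 186 CPM at T0, 193 and 170.3 CPM with erlotinib and 168 and 179 CPM with osimertinib. H1650 held 120.0 and 96.4 CPM at T0, 112 and 111 CPM with erlotinib and 118 and 107 CPM with osimertinib. Within each line the groups overlapped, and every PC9 library was above every H1650 library. Neither drug moved KEAP1 past the test in either line. The 95% confidence intervals of its log2 change ran from -0.17 to 0.19 (PC9 erlotinib), -0.24 to 0.12 (PC9 osimertinib), -0.13 to 0.23 (H1650 erlotinib) and -0.12 to 0.24 (H1650 osimertinib), so changes of more than about 0.24 lie outside them.

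GCLC and GCLM encode the catalytic and the modifier subunit of glutamate-cysteine ligase, the enzyme of the first and rate-limiting step of glutathione synthesis. GCLC is on chromosome 6 from 53497341 to 53616970 on the minus strand. In PC9 it was at 119 and 123 CPM at T0, 161 and 165 CPM with erlotinib and 129 and 136 CPM with osimertinib. In H1650 it was at 31.1 CPM in both T0 libraries, 40.5 and 37.7 CPM with erlotinib and 31.6 and 27.4 CPM with osimertinib. Erlotinib libraries were above T0 in both lines, and osimertinib libraries overlapped T0 in H1650. GCLC rose with erlotinib 1.35-fold in PC9 (log2 0.43 ± 0.08) and 1.26-fold in H1650 (0.33 ± 0.09). With osimertinib its change was 0.13 ± 0.08 in PC9 (edgeR adjusted p = 0.14) and -0.07 ± 0.09 in H1650, and the PC9 change was called at an adjusted p of 0.018 after upper quartile normalization and 0.03 with a filter of 10 counts in every library. Its change did not differ between the lines past the test, with intervals of the difference of -0.34 to 0.14 for erlotinib and -0.44 to 0.03 for osimertinib.

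GCLM, on chromosome 1 from 93885205 to 93909456 on the minus strand, followed GCLC in PC9 and not in H1650. PC9 held 405 and 414 CPM at T0, 565 and 599 CPM with erlotinib and 420.4 and 435 CPM with osimertinib. H1650 held 108 and 105 CPM at T0, 76.4 and 82.0 CPM with erlotinib and 66.7 and 71.2 CPM with osimertinib. Erlotinib libraries lay above T0 in PC9 and below T0 in H1650. GCLM rose 1.42-fold with erlotinib in PC9 (log2 0.51 ± 0.07) and its change with osimertinib was 0.06 ± 0.07. In H1650 it fell by 0.42 ± 0.07 with erlotinib and by 0.62 ± 0.07 with osimertinib (edgeR adjusted p = 3.3e-05 and 1.0e-07).

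The proportion of the pair moved further from T0 in H1650 than in PC9. The ratio of GCLM to GCLC RPKM was 5.38 ± 0.0672 at T0, 5.67 ± 0.116 with erlotinib and 5.14 ± 0.0729 with osimertinib in PC9 (SD, n = 2). In H1650 it was 5.43 ± 0.0997 at T0, 3.23 ± 0.329 with erlotinib and 3.74 ± 0.544 with osimertinib. The lines shared nearly the same ratio at T0 although each transcript differed between them by almost 2 on the log2 scale. The 4 treated H1650 libraries ranged from 2.99 to 4.12, below all other libraries, the lowest of which was at 5.09. No test was run on the ratio.

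**Figure D4:**
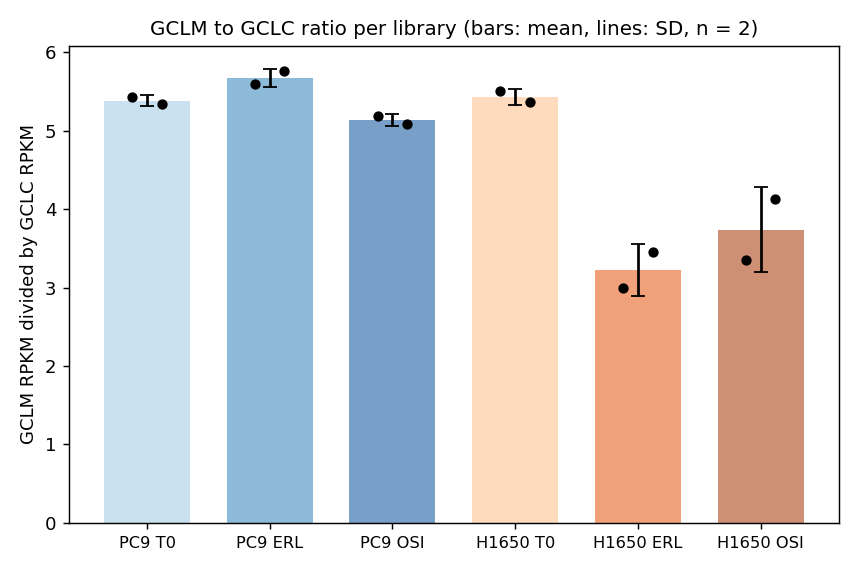
Ratio of GCLM RPKM to GCLC RPKM (vertical axis, from 0) in each library (points), with the group mean (bar) and SD (line, n = 2), for PC9 (blue) and H1650 (orange) at T0 and after erlotinib (ERL) or osimertinib (OSI). The 6 PC9 libraries and the 2 H1650 T0 libraries lie between 5.09 and 5.76, and the 4 treated H1650 libraries between 2.99 and 4.12.

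TXNRD1 encodes cytosolic thioredoxin reductase, a selenoprotein that uses NADPH to keep thioredoxin reduced. It lies on chromosome 12 from 104215779 to 104350305 on the plus strand, and its 2 matches to the response element core are printed above. PC9 held 1541 and 1669 CPM at T0, 2467 and 2703 CPM with erlotinib and 2013 and 2126 CPM with osimertinib. H1650 held 608 and 643 CPM at T0, 597 and 699.5 CPM with erlotinib and 427 and 418 CPM with osimertinib. The H1650 erlotinib libraries spanned the T0 values, whereas the osimertinib libraries lay below them. TXNRD1 rose 1.61-fold with erlotinib and 1.29-fold with osimertinib in PC9 (log2 0.69 ± 0.08 and 0.37 ± 0.08). In H1650 its change with erlotinib was 0.05 ± 0.08, and it fell by 0.57 ± 0.08 with osimertinib (edgeR adjusted p = 1.0e-06). The line difference in the change was -0.64 ± 0.11 for erlotinib and -0.93 ± 0.11 for osimertinib.

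SRXN1 encodes sulfiredoxin, which repairs over-oxidized peroxiredoxins, and was the one gene of the set called lower in PC9. It lies on chromosome 20 from 646615 to 653370 on the minus strand. PC9 held 49.0 and 42.0 CPM at T0, 40.7 and 32.4 CPM with erlotinib and 24.0 and 26.1 CPM with osimertinib. H1650 held 9.98 and 7.06 CPM at T0, 6.45 and 7.22 CPM with erlotinib and 3.96 and 4.23 CPM with osimertinib. Osimertinib libraries were below T0 in both lines. SRXN1 fell by 0.86 ± 0.13 with osimertinib in PC9 and by 1.04 ± 0.18 in H1650 (edgeR adjusted p = 1.2e-06 and 3.4e-05), and the difference between these changes, -0.18, had an interval of -0.63 to 0.27. With erlotinib the PC9 fall of 0.32 ± 0.12 (edgeR adjusted p = 0.028) lost its call with DESeq2 (adjusted p = 0.078), with upper quartile normalization (0.13), with at least 10 counts in every library (0.073), without PC9 T0 replicate 1 (0.26) and without PC9 erlotinib replicate 2 (0.35). Without PC9 erlotinib replicate 1 this fall was 0.49. The H1650 change of SRXN1 with erlotinib was -0.30 ± 0.17 and missed the test. It was -0.55 without H1650 T0 replicate 2, which was past the test (adjusted p = 0.021), and -0.05 without H1650 T0 replicate 1. In GENCODE 29 the same-strand gene AL121758.1 shares 85.0% of the exon bases of SRXN1. It had 1 to 15 reads per library against 83 to 972 for SRXN1, and how shared reads were assigned is not given in the sources used here, so the level of SRXN1 is uncertain.

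NQO1 encodes a quinone reductase that is a widely used readout of NRF2. It lies on chromosome 16 from 69706996 to 69726951 on the minus strand. PC9 held 393 and 413 CPM at T0, 613 and 649 CPM with erlotinib and 578 and 619.7 CPM with osimertinib. H1650 held 503 and 526 CPM at T0, 726 and 783 CPM with erlotinib and 463 and 459 CPM with osimertinib. Both drugs put PC9 above T0, and in H1650 erlotinib libraries lay above and osimertinib libraries below T0. NQO1 rose 1.57-fold with erlotinib and 1.49-fold with osimertinib in PC9 and 1.47-fold with erlotinib in H1650 (log2 0.65 ± 0.07, 0.57 ± 0.07 and 0.55 ± 0.07). Its change with osimertinib in H1650, -0.16 ± 0.07, missed the test (edgeR adjusted p = 0.077) and was called by DESeq2 (adjusted p = 0.031). The line difference in the change was -0.73 ± 0.10 for osimertinib, and for erlotinib its interval was -0.30 to 0.10. The antisense gene AC092115.2 overlaps 17.7% of the exon bases of NQO1 and had 5 to 18 reads per library, against at least 7790 for NQO1.

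HMOX1 encodes heme oxygenase, which breaks heme down to biliverdin, iron and carbon monoxide, and it responds to heme and to several stress pathways besides NRF2. It lies on chromosome 22 from 35380361 to 35394214 on the plus strand. PC9 held 14.3 and 15.6 CPM at T0, 28.3 CPM in both erlotinib libraries and 19.4 and 25.2 CPM with osimertinib. H1650 held 90.4 and 86.2 CPM at T0, 40.7 and 44.2 CPM with erlotinib and 43.3 and 41.0 CPM with osimertinib. All drug libraries were above T0 in PC9 and below T0 in H1650, and every H1650 library remained above every PC9 library. HMOX1 rose 1.89-fold with erlotinib and 1.48-fold with osimertinib in PC9 (log2 0.92 ± 0.11 and 0.57 ± 0.12), and the rise with osimertinib was 0.37 without PC9 osimertinib replicate 2. It fell by 1.06 ± 0.10 with erlotinib and by 1.07 ± 0.10 with osimertinib in H1650 (edgeR adjusted p = 1.2e-09 and 9.9e-10). The line differences of -1.97 ± 0.15 and -1.64 ± 0.15 were the largest in the set for both drugs.

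GPX4 encodes the selenium-dependent glutathione peroxidase that reduces lipid hydroperoxides in membranes and restrains ferroptosis. It lies on chromosome 19 from 1103926 to 1106791 on the plus strand. PC9 held 170.3 and 148 CPM at T0, 318 and 301 CPM with erlotinib and 305 and 315 CPM with osimertinib. H1650 held 162 and 139 CPM at T0, 191 and 176 CPM with erlotinib and 201 and 176 CPM with osimertinib. All treated libraries were above the T0 libraries of their line. GPX4 rose 1.94-fold with each drug in PC9 (log2 0.96 ± 0.08). In H1650 it rose 1.22-fold with erlotinib and 1.25-fold with osimertinib (edgeR adjusted p = 0.0086 and 0.0033). Both H1650 calls were lost without H1650 T0 replicate 2 (adjusted p = 0.20 and 0.11), and each was lost without replicate 1 of its own drug group (0.096 and 0.098). The rise was smaller in H1650 by 0.67 ± 0.12 with erlotinib and 0.64 ± 0.12 with osimertinib on the log2 scale.

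Osimertinib and erlotinib were compared within each line, at doses that differ 100-fold, so the comparison is of these treatments and not of the compounds at a matched dose. In PC9 5 of the 9 genes were lower with osimertinib than with erlotinib and none higher, where 6.41% of all genes tested were lower, 10.1% higher and 16.6% called in either direction. In H1650 4 were lower and none higher, beside 3.73%, 5.02% and 8.75%. By the same edgeR test without adjustment none of the 9 was higher at p under 0.05 in either line. GCLC was lower in both lines (log2 -0.30 ± 0.08 in PC9 and -0.41 ± 0.09 in H1650), as were TXNRD1 (-0.32 ± 0.08 and -0.62 ± 0.08) and SRXN1 (-0.55 ± 0.13 and -0.74 ± 0.19). GCLM (-0.44 ± 0.07) and HMOX1 (-0.35 ± 0.11) were lower in PC9, and NQO1 (-0.71 ± 0.07) in H1650.

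Several of these calls were lost when a single library was left out. Such a fit leaves 1 library in a group, so a call can be lost although the difference stays the same. The PC9 count of 5 fell to 3 without either PC9 erlotinib library and to 2 without PC9 osimertinib replicate 1. The calls lost were GCLC without PC9 osimertinib replicate 1, TXNRD1 without PC9 erlotinib replicate 2, SRXN1 without PC9 erlotinib replicate 1 or PC9 osimertinib replicate 1, and HMOX1 without any of these 3. The HMOX1 difference was -0.16 without PC9 osimertinib replicate 1 and -0.55 without PC9 osimertinib replicate 2. It stayed at -0.35 without either PC9 erlotinib library. GCLM kept its call without each library. In H1650, GCLC lost its call without H1650 osimertinib replicate 2, and SRXN1 lost its call without H1650 erlotinib replicate 2 or H1650 osimertinib replicate 1.

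Other stress pathways share targets with NRF2, and their genes moved with the drug. ATF4, a transcription factor of amino acid and endoplasmic reticulum stress, was listed with 7 genes it is known to control or accompany (DDIT3, ASNS, TRIB3, CHAC1, SESN2, NUPR1 and PSAT1). All 8 were higher with erlotinib in both lines, where 32.7% of all genes tested were higher in PC9 and 18.0% in H1650. With osimertinib 3 were higher and 3 lower in PC9, and 4 were higher and none lower in H1650. All 8 were lower with osimertinib than with erlotinib in both lines, beside 6.41% of all genes in PC9 and 3.73% in H1650. Their median log2 change with erlotinib was 1.90 in PC9 and 2.10 in H1650. CHAC1, which degrades glutathione, was at 1.35, 25.7 and 1.05 CPM in PC9 at T0, with erlotinib and with osimertinib, and at 6.59, 40.2 and 7.47 CPM in H1650. The aryl hydrocarbon receptor AHR, a ligand-activated factor that also acts on NQO1, was listed with AHRR, CYP1A1, CYP1B1 and TIPARP. With erlotinib all 5 of this list were higher in PC9 and 3 were higher in H1650, and with osimertinib 4 were higher in PC9, whereas 1 was higher and 4 lower in H1650. With osimertinib 32.7% of all genes were higher in PC9, and in H1650 17.8% were higher and 17.9% lower. CYP1A1 was at 9.23, 21.6 and 2.15 CPM in H1650 at T0, with erlotinib and with osimertinib. CHAC1 and CYP1A1 were picked from their lists after their values were seen. The part of these pathways in the changes of the 9 genes was not tested.

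The wider pathway was described with 86 further genes in 10 lists, all of which passed the filter. With erlotinib 44 were higher and 32 lower in PC9, beside 32.7% and 29.1% of all genes tested. In H1650 34 were higher and 15 lower, beside 18.0% and 18.5%. With osimertinib 42 were higher and 29 lower in PC9, beside 32.7% and 28.7%, and 31 higher and 15 lower in H1650, beside 17.8% and 17.9%. Their median log2 change with erlotinib was 0.21 in PC9 and 0.14 in H1650, and with osimertinib it was 0.17 and 0.11, beside medians between 0 and 0.07 over all genes. At T0, 61 of the 86 were lower and 15 higher in H1650, beside 33.8% and 35.8% of all genes tested. The median log2 difference of the 86 was -0.84 against 0.04 over all genes. The number called for the change between the lines was 32 higher and 24 lower with erlotinib and 30 higher and 27 lower with osimertinib. Over all genes tested 21.1% were higher and 19.8% lower in this difference with erlotinib, and 21.5% and 20.5% with osimertinib. Between the drugs, 17 of the 86 were higher and 12 lower with osimertinib in PC9, beside 10.1% and 6.41% of all genes tested. In H1650 7 were higher and 15 lower, beside 5.02% and 3.73%.

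**Figure D5:**
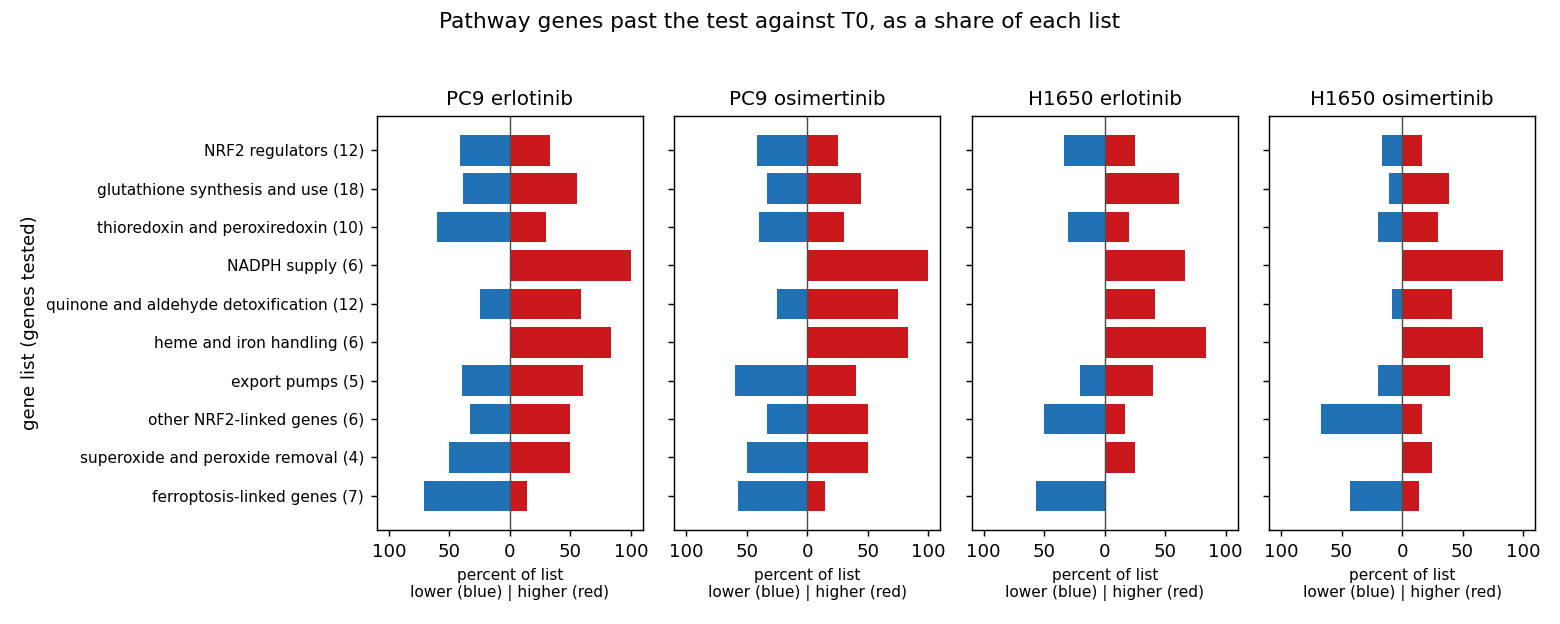
Percent of each pathway list (vertical axis, with the number of genes tested) called higher (red, to the right) or lower (blue, to the left) against T0 with each drug in each line. All 6 NADPH supply genes were called higher with both drugs in PC9, beside 32.7% of all genes tested with each drug. In H1650 4 were called higher with erlotinib and 5 with osimertinib, beside 18.0% and 17.8%.

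NADPH, which feeds both thioredoxin reductase and glutathione reductase, is made by the enzymes of 1 list. All 6 of its genes were higher in PC9 with each drug, beside 32.7% of all genes tested, with medians of 1.06 and 1.09. None was lower in H1650, beside 18.5% of all genes with erlotinib and 17.9% with osimertinib. IDH1, which makes NADPH in the cytosol, had the largest mean change of the list and stood at 60.3, 342 and 272 CPM in PC9 and 105, 346 and 255 CPM in H1650 at T0, with erlotinib and with osimertinib. It rose by 2.51 ± 0.08 and 2.17 ± 0.08 in PC9 and by 1.72 ± 0.07 and 1.28 ± 0.07 in H1650. ME1, the cytosolic malic enzyme, had the smallest mean change, with rises of 0.72 and 0.46 in PC9 and changes of -0.08 and -0.06 in H1650 that missed the test.

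Heme and iron handling showed 5 of 6 genes higher in PC9 with each drug, beside 32.7% of all genes tested. In H1650 5 were higher with erlotinib and 4 with osimertinib, beside 18.0% and 17.8%, and none was lower in either line. SLC40A1, the iron exporter ferroportin, rose by 2.91 ± 0.14 and 3.63 ± 0.14 in PC9, from 4.74 CPM to 35.5 and 58.8 CPM. It rose by 0.82 and 0.79 in H1650, and the line difference of -2.08 ± 0.24 with erlotinib and -2.84 ± 0.24 with osimertinib was the lowest average over both drugs among the pathway genes with at least 10 CPM that were called in the same direction for both. BLVRB, a biliverdin reductase, rose by 0.51 and 0.37 in PC9 and by 0.48 and 0.37 in H1650. BLVRA, the other biliverdin reductase of the list, was called in none of the 4 drug comparisons (mean log2 change -0.12). So in H1650 HMOX1 was lower with both drugs while BLVRB was higher and BLVRA was not called.

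Among quinone and aldehyde detoxification genes all 12 were lower in H1650 at T0, beside 33.8% of all genes tested. With erlotinib 7 were higher and 3 lower in PC9, beside 32.7% and 29.1%, and 5 higher and none lower in H1650, beside 18.0% and 18.5%. With osimertinib 9 were higher and 3 lower in PC9, beside 32.7% and 28.7%, and 5 higher and 1 lower in H1650, beside 17.8% and 17.9%. ALDH3A1, an aldehyde dehydrogenase, had 9720 and 10152 reads in the PC9 T0 libraries and 1 and 2 reads in the H1650 T0 libraries. It rose by 1.79 with each drug in PC9, and the H1650 drug libraries held 8 to 12 reads. AKR1B10, an aldo-keto reductase, had 3312 and 3571 reads in PC9 at T0 and 10 and 12 in H1650. It rose in H1650 by 2.28 ± 0.29 with erlotinib and 2.06 ± 0.30 with osimertinib, to 38 to 47 reads. AKR1C1, AKR1C2 and AKR1C3 are closely related genes, and reads can be split between them. NQO2, the relative of NQO1, fell by 0.57 and 0.88 in PC9 and by 0.28 with osimertinib in H1650.

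Of the 18 genes of glutathione synthesis and use, 10 were higher and 7 lower with erlotinib in PC9, and 8 higher and 6 lower with osimertinib. In H1650 11 were higher and none lower with erlotinib, and 7 higher and 2 lower with osimertinib. Over all genes tested 61.8% were called in either direction with erlotinib and 61.4% with osimertinib in PC9, and 36.5% and 35.7% in H1650. GSTP1, a glutathione transferase, is among the 11 but held only 3 reads in each H1650 erlotinib library. It had 0 reads in both H1650 T0 libraries, which makes it at least 6386-fold lower than the 894 CPM of PC9, taking 3 reads per library as the limit. In PC9 it rose by 0.36 and 0.48. GGCT, which degrades gamma-glutamyl peptides, fell by 1.21 and 1.60 in PC9 and rose by 0.24 with erlotinib in H1650. GGT1, the surface enzyme that starts glutathione breakdown, fell by 0.90 and 1.32 in PC9 and rose by 1.66 and 2.38 in H1650, and its difference between the lines was 2.57 ± 0.18 with erlotinib and 3.69 ± 0.19 with osimertinib.

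The 10 thioredoxin and peroxiredoxin genes divided, with 3 higher and 6 lower with erlotinib in PC9 and 2 higher and 3 lower in H1650. With osimertinib 3 were higher and 4 lower in PC9 and 3 higher and 2 lower in H1650. The shares of all genes called in either direction were 61.8% and 61.4% in PC9 with erlotinib and osimertinib, and 36.5% and 35.7% in H1650. TXNIP, an inhibitor of thioredoxin, rose by 2.15 and 2.19 in PC9, from 117 CPM to 519 and 532 CPM. In H1650 it rose by 0.47 with erlotinib, and its change with osimertinib was -0.02. PRDX4, a peroxiredoxin of the endoplasmic reticulum, fell by 0.82 and 0.76 in PC9 and by 0.27 with erlotinib in H1650.

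Of the 12 regulators of NRF2, 4 were higher and 5 lower with erlotinib in PC9 and 3 higher and 4 lower in H1650. With osimertinib 3 were higher and 5 lower in PC9 and 2 higher and 2 lower in H1650. Over all genes tested 61.8% were called in either direction with erlotinib and 61.4% with osimertinib in PC9, and 36.5% and 35.7% in H1650. SQSTM1, the autophagy adaptor that binds KEAP1, rose by 1.41 ± 0.07 and 1.32 ± 0.07 in PC9, from 483 CPM to 1289 and 1209 CPM. In H1650 it rose by 0.33 with erlotinib, and its change with osimertinib was 0.17 ± 0.07 (edgeR adjusted p = 0.078). NFE2L3, a relative of NFE2L2, fell by 2.51 and 2.21 in PC9, from 188 CPM to 33.0 and 40.6 CPM, and lay between 9.63 and 11.9 CPM in the H1650 groups. So the NFE2L2 gene and NFE2L3 moved in opposite directions in PC9. Over the 4 drug comparisons NFE2L3 was called lower in 3. NFE2L1, another relative in the list, was called higher in 3 of them and lower in none.

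Of 5 export pumps, 3 were higher and 2 lower with erlotinib and 2 higher and 3 lower with osimertinib in PC9, and 2 were higher and 1 lower with each drug in H1650. The shares of all genes called in either direction were 61.8% and 61.4% in PC9 with erlotinib and osimertinib, and 36.5% and 35.7% in H1650. ABCC5 rose by 1.64 and 1.73 in PC9 and by 0.69 and 0.37 in H1650, and ABCC4 fell by 1.93 and 2.19 in PC9 and by 1.09 and 0.88 in H1650. Of 6 other genes linked to NRF2, 3 were higher and 2 lower with each drug in PC9, and 1 was higher in H1650 with each drug while 3 were lower with erlotinib and 4 with osimertinib. TRIM16L, a copy of the TRIM16 gene with which reads can be shared, rose by 1.30 and 1.06 in PC9 and fell by 0.65 and 0.84 in H1650. PIR rose by 0.60 and 0.49 in PC9 with changes of -0.02 and 0.21 in H1650 that missed the test, and OSGIN1 fell by 0.36 and 0.31 in PC9 and by 0.92 and 1.05 in H1650. TRIM16L and OSGIN1 thus stood with HMOX1 among the genes that were lower with both drugs in H1650.

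Of 4 genes that remove superoxide and peroxide, 2 were higher and 2 lower with each drug in PC9, and 1 was higher and none lower with each drug in H1650. Over all genes tested 61.8% were called in either direction with erlotinib and 61.4% with osimertinib in PC9, and 36.5% and 35.7% in H1650. CAT, catalase, rose by 0.75 and 0.65 in PC9 and by 0.99 and 0.68 in H1650. SOD1, cytosolic superoxide dismutase, fell by 0.69 and 0.38 in PC9, with changes of -0.14 and 0.05 in H1650 that missed the test. Of 7 further genes linked to ferroptosis, 5 were lower and 1 higher with erlotinib in PC9 and 4 were lower and 1 higher with osimertinib. In H1650 4 were lower with erlotinib, and 3 were lower and 1 higher with osimertinib. DHODH, a mitochondrial enzyme known to restrain lipid peroxidation, fell by 1.09 and 1.31 in PC9 and by 0.47 and 0.43 in H1650. LPCAT3, a phospholipid-remodelling enzyme, fell by 0.35 with erlotinib in H1650 and missed the test elsewhere against T0, and the opposite-strand gene EMG1 overlaps 65.6% of its exon bases. GPX4 was thus higher in the 4 comparisons in which DHODH was lower. DHODH was not alone in this list, as VKORC1L1 was lower in 4 of them, TFRC in 3, and ACSL4 and AIFM2 in 2 each. ALOX15 was higher in 3.

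The genes whose pattern over the 12 libraries was most like that of HMOX1 and SRXN1, the 2 members with the largest mean absolute change, were found among 10285 genes after the mean of each line was subtracted. For HMOX1 they were GRK5 (Pearson r = 0.97), ZNF281 (0.95) and SRF (0.94), and for SRXN1 they were DANCR (0.96), SNX17 (0.94) and PMM1 (0.93). GRK5 ranged from 6.91 to 12.5 CPM in PC9, lowest at T0, and from 11.1 to 25.8 CPM in H1650, highest at T0. These coefficients describe the 12 libraries, which share 6 treatments, and carry no test. By mean absolute log2 change over the 4 drug comparisons, SRXN1 was barely ahead of GPX4 (0.6318 against 0.6316).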

How the data were processed

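The authors deposited 1 table of raw read counts per gene, made with featureCounts in the DolphinNext platform. GRCh38 and DESeq2 are named in the submitters' processing notes. The aligner, the annotation and the strand setting are not given in the sources used here, so reads of overlapping genes could be lost or shared. The deposited counts were used unchanged, and gene lengths came from the same table.

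Counts were tested with edgeR 4.0.16 in R 4.3.3 (TMM normalization, quasi-likelihood test). Genes were filtered by expression within groups, which left 19108 of 60591. One model of the 6 groups on all 12 libraries gave the 9 comparisons, with 6 residual degrees of freedom and Benjamini-Hochberg adjustment over all genes tested. The steps were tested on simulated data. Alternatives were DESeq2 1.42.0, other normalizations and filters, a stricter threshold, each line alone, a replicate block and leaving out each library. Depth of 17961765 to 26346187 reads per library limits genes near 3 reads.

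All 9 genes were named. From each pathway list the genes with the highest and lowest mean change over the 4 drug comparisons were named (at least 10 CPM, called at least once), with the 3 highest and 3 lowest line differences called alike for both drugs. Companion lists were fixed whole. The genes and lists were chosen with earlier results of these data known. Positions and overlaps came from GENCODE 29, and promoters from RefSeq.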

Additional observations from a re-analysis of the deposited data

Results flagged for a closer look

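For 6 of the 9 genes the change with a drug differed between the lines in the interaction term of the edgeR model (H1650 minus PC9, log2 scale, Benjamini-Hochberg adjustment over all genes tested). With erlotinib the difference was -0.74 for NFE2L2 (adjusted p = 1.5e-06), -0.93 for GCLM (1.1e-08), -0.64 for TXNRD1 (1.9e-05), -1.97 for HMOX1 (8.0e-12) and -0.67 for GPX4 (3.9e-05). With osimertinib it was -0.97 for NFE2L2 (adjusted p = 1.3e-08), -0.69 for GCLM (2.0e-06), -0.93 for TXNRD1 (3.8e-08), -0.73 for NQO1 (5.3e-07), -1.64 for HMOX1 (5.1e-10) and -0.64 for GPX4 (7.3e-05). HMOX1 rose in PC9 and fell in H1650 with both drugs, whereas GPX4 rose in both lines and by less in H1650. The T0 libraries enter both differences, and the groups of 2 libraries were too small to look for a single library far from the others.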

How the results depend on the processing

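The number of the 9 genes called in the PC9 comparison of osimertinib with erlotinib was 5 and ranged from 2 to 5 when each library was left out, with 3 without PC9 erlotinib replicate 1 or 2 and 2 without PC9 osimertinib replicate 1. For the 86 pathway genes it was 29 there, 15 at an adjusted p under 0.01, and 17 to 28 with a library left out (19 and 17 without PC9 erlotinib replicates 1 and 2, 18 without PC9 osimertinib replicate 2). In H1650 it was 22, 13 at an adjusted p under 0.01, and 12 to 22 with a library left out (13 without H1650 erlotinib replicate 1, 12 and 14 without H1650 osimertinib replicates 1 and 2). The cause was not tested. The counts for the other comparisons stayed within 1.5 times.

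With other settings on all 12 libraries, changes of sign occurred where the log2 value was near 0. For KEAP1 they were -0.015 with DESeq2, -0.014 with RLE normalization, -0.054 without a filter and -0.034 with each line alone (PC9 erlotinib), 0.014 with upper quartile normalization (PC9 osimertinib) and -0.038 with upper quartile normalization (erlotinib line difference). For GCLM in PC9 with osimertinib the value was -0.022 without a filter. For SRXN1 the erlotinib line difference was -0.068 with upper quartile normalization and -0.015 where 10 counts were required in each library. For GPX4 the PC9 drug comparison was -0.017 with upper quartile normalization, -0.021 without a filter and -0.018 with each line alone, and for HMOX1 the H1650 drug comparison was 0.0031 without a filter.

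With a library left out, KEAP1 ranged from -0.086 to 0.092 (PC9 erlotinib), -0.10 to 0.21 (H1650 erlotinib), -0.093 to 0.22 (H1650 osimertinib), -0.11 to 0.22 and -0.032 to 0.30 (line differences with erlotinib and osimertinib), -0.15 to 0.026 (PC9 drug comparison) and -0.060 to 0.081 (H1650 drug comparison). TXNRD1 ranged from -0.074 to 0.16 (H1650 erlotinib), GCLC from -0.18 to 0.025 (H1650 osimertinib) and SRXN1 from -0.22 to 0.29 and -0.42 to 0.095 (line differences). NFE2L2 ranged from -0.025 to 0.16 (PC9 drug comparison), HMOX1 from -0.072 to 0.060 (H1650 drug comparison), and GPX4 from -0.038 to 0.043 and -0.058 to 0.13 (drug comparisons) and -0.21 to 0.025 (T0).

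Same-numbered libraries did not deviate together (15 pairs of groups, r from -0.067 to 0.095), so the numbers were not taken as pairs. With a replicate block 8, 6, 6 and 7 of the 9 genes were called for PC9 erlotinib, PC9 osimertinib, H1650 erlotinib and H1650 osimertinib, 5 and 6 for the line differences, 5 and 5 for the drug comparisons in PC9 and H1650, and 7 at T0. The calls gained were NFE2L2 in H1650 with erlotinib (-0.15, adjusted p = 0.044), NQO1 in H1650 with osimertinib (-0.16, adjusted p = 0.019) and GCLM in the H1650 drug comparison (-0.20, adjusted p = 0.028), and none was lost. Over all 19108 genes the block also raised the number called, from 6966 to 7821 for H1650 erlotinib, from 6816 to 7680 for H1650 osimertinib and from 1672 to 2670 for the H1650 drug comparison. With the block it was 12176 for PC9 erlotinib, 12127 for PC9 osimertinib and 4166 for the PC9 drug comparison. It was 8467 and 8695 for the line differences with erlotinib and osimertinib, and 13591 at T0.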

Other observations

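AL033397.1, a same-strand gene that overlaps 6.12% of the exon bases of GCLC in GENCODE 29, had 416 to 1209 reads in the PC9 libraries and 0 reads in all 6 H1650 libraries. GCLC itself was counted in every library of both lines. AL033397.1 was chosen after its values were seen.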
